A study of Mus musculus with 2 samples.

Results

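Dense groups of Oct4 peaks were examined in the list obtained after a second precipitation with the lectin sWGA. The peaks of chromosomes 1 to 19 were joined into a run whenever the gap from the end of one peak to the start of the next was at most 10 kb, and runs of 5 or more peaks were kept as dense groups. This gave 187 groups with 1104 peaks, out of 33200 peaks on the autosomes (3.33%) and 33783 peaks in all. The members were chosen by the deposited positions of the peaks, which are themselves a readout of the library, so their closeness is given as a description and no test is made of it. Number of peaks, spacing, tags, score and fold all come from the same calling step.

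The cells were ZHBTc4 F-Oct4, mouse embryonic stem cells with Flag-tagged Oct4. As background, in ZHBTc4 the native Oct4 gene is disrupted and a tetracycline-repressible transgene supplies the protein, so this is 1 engineered line. Both libraries came from formaldehyde-fixed, sonicated chromatin that was first bound through the Flag tag and then released with free peptide. For the sWGA library the released material was bound again by lectin beads. The protocol gives plain agarose beads for the control, whereas the labels also call that library an IgG step and an input, and which holds was not settled here. Material was eluted with GlcNAc. Because the chromatin was fixed, the sWGA step selects cross-linked complexes and not Oct4 by itself. Each group had 1 library, and no value below has a replicate error. All positions are 1-based on the mm9 build.

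Oct4, encoded by Pou5f1, is a POU-domain factor that binds the octamer element, often beside Sox2, and is needed to keep embryonic stem cells pluripotent. O-GlcNAc is a single sugar that the enzyme Ogt adds to serine and threonine residues of nuclear and cytoplasmic proteins and that Oga removes. sWGA, a modified wheat germ lectin, binds N-acetylglucosamine. In embryonic stem cells, binding sites of Oct4 and its partners are known to occur in clusters as well as singly, and long clusters of sites are a known feature of strongly used enhancers.

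The sWGA library held 6129874 tags after the caller's filter and the control library held 78351, so that the sWGA library was 78.2 times deeper. A peak in the list held at least 9 tags, and peaks of at least 18 tags are called strong below. The score is 10 times −log10 of the caller's p, and scores, folds and tags are the authors' own values. The dense groups took up 3.56 Mb, of which the peaks themselves covered 528 kb (14.8%). They held 19227 tags, which was 3.80% of the tags in autosomal peaks and 0.314% of the filtered library.

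Most runs were short. Of 25517 runs on the autosomes, 20197 were single peaks, 3821 held 2 peaks, 991 held 3 and 321 held 4. Among the 187 dense groups, 111 held exactly 5 peaks, 37 held 6 and 24 held 7. A further 7 groups had 8 peaks and 3 groups had 9. Each of the sizes 10, 11, 12, 14 and 29 occurred once, so the group of 29 peaks stood well apart from the next in size.

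The control list, called with the libraries exchanged, was joined by the same rule. Of its runs on the autosomes, 652 were single regions and 1 held 5 or more. That run, on chromosome 9 at 3018223 to 3038284, had 11 control regions of 3 to 24 tags each and 86 tags in all, and 0 sWGA peaks lay within 10 kb of it. The libraries differ in depth, so the numbers of groups in the lists are not comparable.

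In the largest group, which ran from 19953204 to 20033690 on chromosome 8, 29 peaks held 812 tags over 80.5 kb. Read from left to right, the peaks between 19953204 and 19967248 held 24, 15, 14, 15, 17, 16 and 10 tags, and the pair that followed held 12 and 52. After a gap of 9791 bp, the longest in the group, came peaks of 29, 38, 40, 39, 13, 52, 16, 15, 12 and 16 tags. A gap of 8798 bp led to the right-hand portion, where peaks of 28, 18 and 42 tags preceded the strongest one. That peak (20019707 to 20020631) had 212 tags, with a fold of 328.68 over the caller's background. The remaining 6 peaks to its right held 13, 9, 16, 9, 10 and 10 tags, so the strongest peak had some of the weakest of the group on its right side.

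The chromosome 8 group was the most uneven of the groups with 8 or more peaks. Its strongest peak held 26.1% of the tags, 7.57 times the share that equal peaks would have. That ratio cannot exceed the number of peaks, and its median was 2.10 in groups of 8 or more. The peaks next in strength held 52 tags each, and without the strongest the next one made up 8.67% of the remaining 600 tags. In all, 11 of the 29 peaks were strong, against 21.3% of all autosomal peaks, and the other 18 together had 238 tags. Evenness, taken as the effective number of peaks (the inverse of the summed squared tag shares) over the number of peaks, runs up to 1 for equal peaks. It was 0.364 here, where 29 peaks counted as 10.6 effective ones.

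More peaks lay to the left of it. A run of 5 peaks at 19714502 to 19723443 held 93 tags and a run of 6 peaks at 19748801 to 19762955 held 102 tags, so that 3 dense groups lay within 319 kb. The whole stretch contained 49 peaks with 1576 tags, which was 2.997% of all peaks of chromosome 8. The 9 peaks of the stretch outside its dense groups included one of 289 tags at 19784317 to 19785305. To the right of the largest group the next listed peak was 2103 kb away.

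Peaks on a raised control background were frequent in that stretch. The caller's fold is normally a whole number of tags over the genome-wide expectation of 0.508 tags. A fold that is not whole within 0.01 tags shows that control tags nearby had raised the background. The caller scaled up the control library, which was the smaller, so a single control tag can be enough. How many control tags lay behind each such fold was not counted. Over all autosomal peaks 8.71% had such a local background. In the chromosome 8 group 12 of 29 peaks had one (41.4%, exact 95% interval 23.5 to 61.1), and in the whole stretch 20 of 49 peaks (40.8%). Neighbouring peaks can share control tags in windows of up to 10 kb, so they are not independent and the interval is too narrow. A control region of 3 tags lay 5461 bp to the left of the group, at 19947348 to 19947742. The part of this background in the group was not tested. The strongest peak, with 212 tags, was on the genome-wide background, and the peak of 289 tags outside the group was on a local one.

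**Figure D1:**
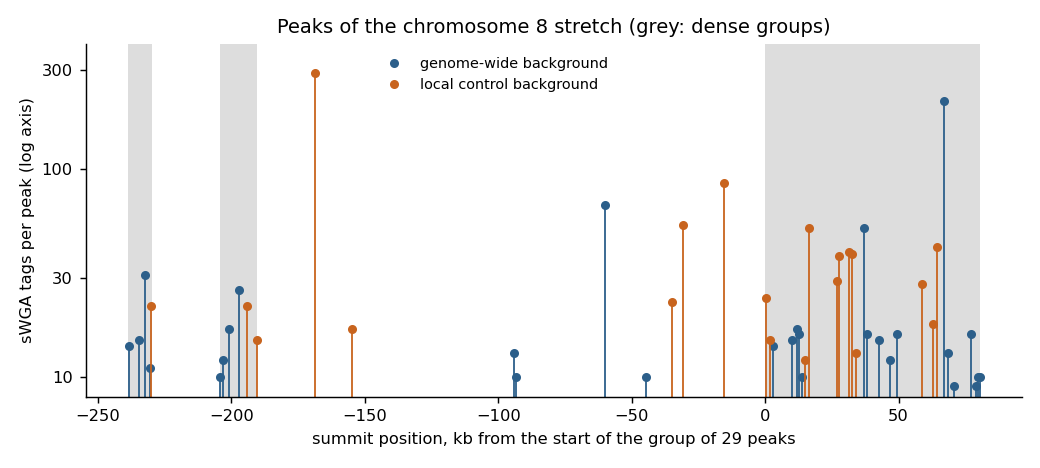
Tags per peak (log axis) against summit position, in kb from the start of the group of 29 peaks, for the 49 peaks of the chromosome 8 stretch. Grey bands mark the 3 dense groups, blue points have the genome-wide background and orange points a local control background. The peak of 212 tags stands near the right end of the largest group, and the peak of 289 tags lies outside the groups.

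The second largest group, on chromosome 1 at 72248393 to 72312401, spread 14 peaks and 422 tags over 64.0 kb. Its strongest peaks lay side by side near the middle, with 68 tags at 72272469 to 72273663 and 79 tags at 72275564 to 72276177. Further to the right, after a peak of 10 tags, stood peaks of 33, 51, 41, 21, 35 and 11 tags, while the 5 peaks at the left held 12, 25, 14, 10 and 12. The strongest peak had 18.7% of the tags and evenness was 0.658. A local background was present at 6 of the 14 peaks, including the pair of strongest ones.

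On chromosome 13, a group of 12 peaks with 198 tags ran over 44.5 kb, from 23583734 to 23628280. Its strongest peak, of 32 tags, was the first one, and the others held 20, 12, 18, 15, 9, 28, 12, 10, 18, 12 and 12 tags. The largest share of any 1 peak was 16.2%, the lowest among the 187 groups, and evenness was 0.851. None of its peaks had a local background. As background, this part of chromosome 13 belongs to the large cluster of replication-dependent histone genes, which encode the core and linker histones made in S phase.

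The group on chromosome 19 at 5793026 to 5810622 packed 11 peaks with 156 tags into 17.6 kb. Peaks of 11, 20, 26 and 18 tags came first, followed by 5 peaks of 10 tags each between 5798923 and 5802890 and by peaks of 9 and 22 tags. The median gap was 774.5 bp, and the strongest peak held 16.7% of the tags. This was the densest of the 12 groups with the most peaks, at 6.25 peaks per 10 kb. As background, Malat1, a long nuclear RNA that is abundant in most cells, is transcribed from this place, and Neat1, the RNA that builds paraspeckles, is its neighbour.

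No annotation of the mm9 build was used, so the histone, Malat1 and Mir290 placements are general knowledge of the mouse map and were not read from the files. The other groups are given by position only, and the distance of a peak from any gene was not analysed here.

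The group on chromosome 5 at 15185629 to 15209136 held 10 peaks with 133 tags in 23.5 kb. Several of its peaks almost touched. Gaps of 3 and 25 bp separated peaks of 24, 23 and 9 tags, and a gap of 4 bp separated peaks of 10 and 9 tags. The number of peaks there therefore depends on how the caller split neighbouring tags.

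Groups of 9 peaks were found on chromosomes 16, 3 and 1. That on chromosome 16 at 22395161 to 22413456 was the strongest of them, with 216 tags in 18.3 kb and peaks of 22, 20, 15, 62, 9, 20, 37, 13 and 18 tags. Its gaps ran from 749 to 2517 bp, and 7 of its 9 peaks reached a score of 100, as did 33.9% of all autosomal peaks. The chromosome 3 group at 88080583 to 88101323 held 154 tags, with its strong peaks of 27, 36 and 30 tags set apart by 6 peaks of 9 to 12 tags. The chromosome 1 group at 154729208 to 154766167 held 139 tags, and its strongest peak, of 32 tags, had a local background.

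**Figure D2:**
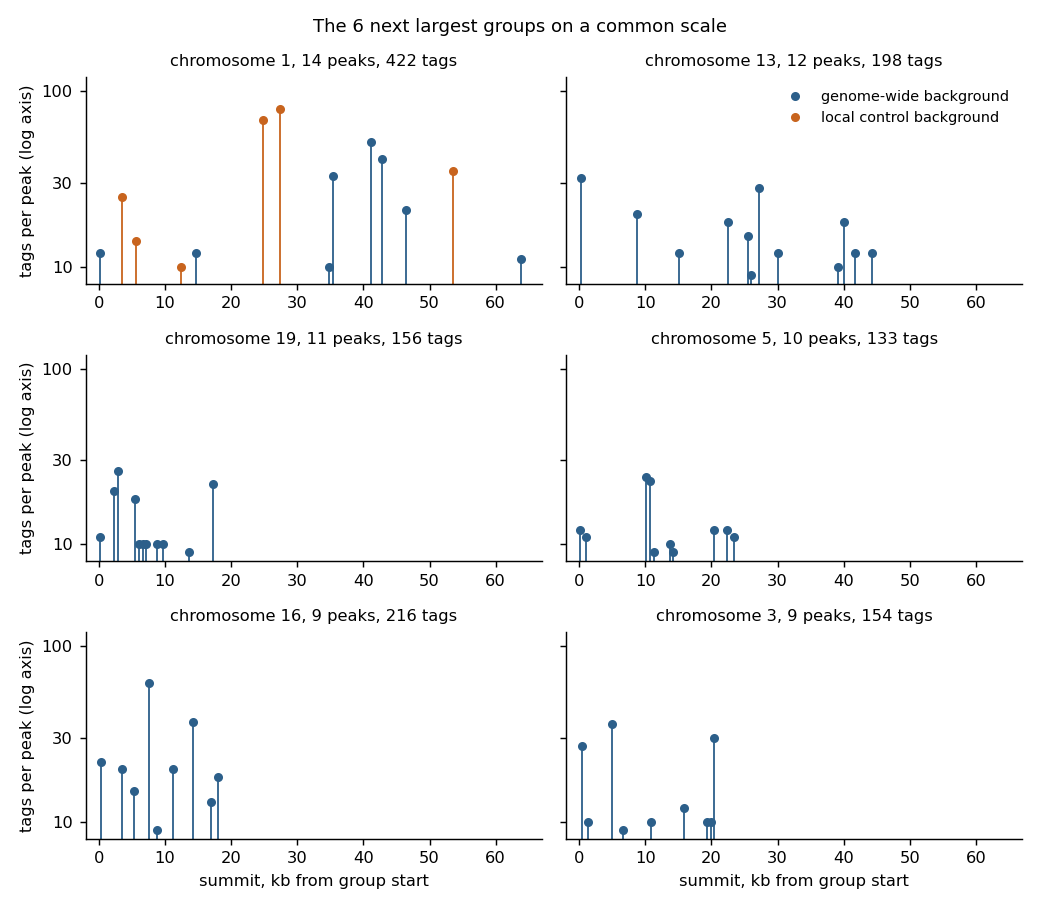
Tags per peak (log axis) against summit position in kb from the group start, for the 6 groups that follow the largest in number of peaks, with local control background in orange. The chromosome 1 group has 14 peaks over 64.0 kb with its strongest peaks at 68 and 79 tags, whereas the chromosome 19 group of 11 peaks fits within 17.6 kb and has a row of 10-tag peaks.

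Of the 7 groups of 8 peaks, the 4 with the most tags lay on chromosomes 7, 17, 11 and 14. The first, at 13591391 to 13620295 on chromosome 7, held 181 tags, of which 78 fell in a single peak (43.1%). The group on chromosome 17 at 17730818 to 17765807 had 130 tags and 2 equal leading peaks of 28. The group on chromosome 11 at 22979960 to 23010645 held 120 tags, with 34 in the strongest peak, and that on chromosome 14 at 99697662 to 99724408 held 116 tags, with 42 in the strongest. Another group of 8, on chromosome 1 at 85259011 to 85279539, was nearly level, with 110 tags in peaks of 16, 12, 17, 14, 12, 9, 12 and 18.

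Dense groups were of moderate length. The median length was 17.8 kb (order-statistic 95% interval 17.19 to 18.97), with quartiles of 13.9 and 22.7 kb and a range of 3.669 to 80.5 kb. Groups of exactly 5 peaks had a median of 16.4 kb, groups of 6 to 7 peaks 19.1 kb and groups of 8 or more 28.3 kb. The gap rule limits each step to 10 kb, and length did not follow the number of peaks in every group: the chromosome 19 group of 11 peaks, at 17.6 kb, was shorter than the median for 6 to 7 peaks. Runs of 4 peaks, just outside the rule, had a median length of 11.8 kb.

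The shortest group, on chromosome 13 at 114514126 to 114517794, put 5 peaks into 3.669 kb, and all were weak, with 9, 9, 9, 9 and 10 tags. The next shortest, on chromosome 5 at 22936083 to 22940042, held 84 tags in 3.96 kb, and peaks covered 72.0% of its length, the most of any group. Another lay on chromosome 3 at 15054268 to 15058319, with 94 tags in 4.052 kb and peaks of 13, 12, 22, 38 and 9. On chromosome 4 at 146881372 to 146886599 peaks of 27, 20, 18, 10 and 16 tags lay within 5.228 kb. The fifth, on chromosome 1 at 141390519 to 141396914, had 106 tags in 6.396 kb. Of these short groups, that on chromosome 4 was the one with a peak on a local background. The most peaks per length were found in 4 of these groups and in a group of 6 peaks on chromosome 6 at 10038964 to 10046031, which held 139 tags at 8.49 peaks per 10 kb.

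Spacing within groups was uneven. The 917 gaps between neighbours had a median of 2450 bp (2211 to 2701), with quartiles of 778 and 5567 bp and a range of 1 to 9956 bp. A gap of at most 500 bp was found in 179 cases (19.5%) and one of at most 155 bp, the fragment length set by the caller, in 62 (6.76%). In runs of 2 to 4 peaks the median gap was 3215.5 bp (3119 to 3335), 16.1% of gaps were at most 500 bp and 6.98% at most 155 bp. The same gaps chose the groups, so this difference is a description.

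Many groups depended on a long step. In 145 of 187 groups the longest gap was above 5 kb, and in 22 it was above 9.5 kb, just inside the rule. On the other side of the threshold, 2 groups had a further peak at most 10.5 kb away and 78 had one within 20 kb. The distance from a group to the nearest peak outside it had a median of 21579 bp (20147 to 24886).

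Tags were shared out unevenly in most groups. The strongest peak held a median of 30.8% of the group's tags (29.6 to 32.5), with quartiles of 27.2 and 37.7% and a range of 16.2 to 61.6%. This was 1.76 times the share that equal peaks would have (1.64 to 1.84). The strongest peak had a median of 28 tags and the second one 18, while the weakest had a median of 9, the lowest number in the list. In groups of 5 the strongest share had a median of 31.8%, in groups of 6 to 7 it was 30.4% and in groups of 8 or more 23.0%. Runs of 4, just outside the rule, had a median of 35.8%. Relative to equal peaks the medians were 1.43 in runs of 4, 1.59 in groups of 5, 1.98 in groups of 6 to 7 and 2.10 in groups of 8 or more. Both measures thus moved with the number of peaks. A place with fewer than 9 tags is not listed, so tags look more evenly shared among listed peaks than they would with such places counted.

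**Figure D3:**
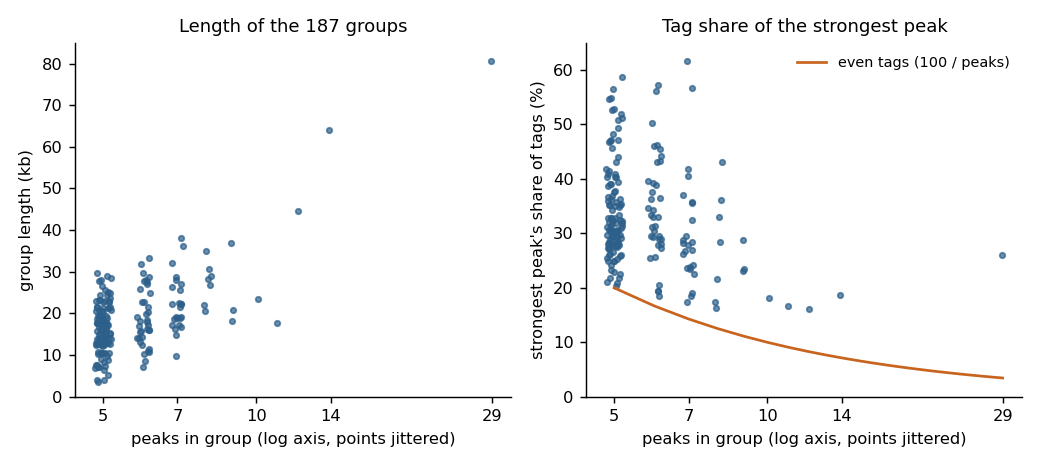
Left, length in kb of each of the 187 groups against its number of peaks (log axis, points spread sideways for clarity). Right, the strongest peak's share of the group's tags in percent against the number of peaks, with the line that equal peaks would give. Every point lies above the line, below which none can fall. The group of 29 peaks lies farthest above the line in relative terms, at 26.1%, though that ratio can be larger in groups with more peaks.

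In 14 groups a single peak held at least 50% of the tags. The most extreme lay on chromosome 17 at 37215184 to 37229908, where 122 of 198 tags (61.6%) belonged to the second of 7 peaks, and the other 6 held 12, 15, 12, 14, 13 and 10. Another group on chromosome 17, at 34045877 to 34066608, had 71 of 121 tags in its last peak, which was on a local background, and 18, 11, 11 and 10 in the others. On chromosome 5 at 115914408 to 115941436 the last of 6 peaks held 152 of 266 tags (57.1%), and at 2331 bp it was also the longest peak of any dense group. On the same chromosome, at 108479487 to 108506645, the last of 7 peaks held 110 of 194 tags (56.7%). On chromosome 9 at 97002307 to 97022820 the fourth of 5 peaks held 69 of 122 tags (56.6%). In 4 of these 5 groups no other peak reached 25 tags, and in the chromosome 5 group of 6 peaks the one next in strength held 51.

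At the other end, 30 groups had a strongest share under 25%. Besides the groups on chromosomes 13, 19 and 1 described above, the lowest shares belonged to a group of 7 peaks on chromosome 15 at 99481068 to 99509144 and a group of 8 peaks on chromosome 7 at 52872398 to 52894350. The first held 75 tags in peaks of 13, 9, 13, 10, 11, 9 and 10, and the second held 92 tags in peaks of 9, 12, 16, 10, 10, 10, 12 and 13. Neither had a peak of 18 tags or more.

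Evenness over all groups had a median of 0.851 (0.825 to 0.870), with quartiles of 0.725 and 0.926. It was at least 0.9 in 58 groups and under 0.6 in 15. In runs of 4 the median evenness was 0.914, in groups of 5 0.876, in groups of 6 to 7 0.795 and in groups of 8 or more 0.798. The variance of tags over their mean, which is about 1 for counts that differ by counting error alone and lower where a floor cuts them, had a median of 3.33 (2.76 to 4.11). It was at most 1 in 38 groups and above 5 in 71.

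Strong peaks, 21.3% of all autosomal peaks, were spread over the groups as follows. No peak of at least 18 tags was present in 32 groups, 1 was present in 55, 2 in 63, 3 in 26, 4 in 7, and 5 or more in 4. The 32 groups without one held 46 to 92 tags and up to 8 peaks, with a median evenness of 0.974. All their peaks held at least 9 and fewer than 18 tags, so a high evenness follows largely from how these groups were picked. Only 5 groups had a peak of at least 100 tags. These were the chromosome 8 group, both chromosome 5 groups and the chromosome 17 group named above, and a group on chromosome 2 at 168021288 to 168040159, where the last of 5 peaks held 104 of 205 tags at a fold of 153.52 and the one before it held 53.

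The strongest peak stood at an end of its group in 65 of 187 groups. End peaks made up 374 of the 1104 members (33.9%). Peaks at the ends and inside the groups had similar tags: both had a median of 12, and 27.8% of end peaks (23.3 to 32.6) and 29.2% of inner peaks (25.9 to 32.6) held at least 18 tags. These intervals treat peaks as independent, which neighbours are not, and no test of ends against inside was made.

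Members of dense groups were somewhat stronger and longer than peaks outside, as deposited by the same caller. Of the 1104 members 317 held at least 18 tags (28.7%, 26.1 to 31.5), against 21.3% of all autosomal peaks and 21.02% of those outside dense groups. A score of at least 100 was reached by 465 members (42.1%), against 33.9% of all. A length of at least 600 bp was reached by 203 members (18.4%), against 11.1% of all. Without the chromosome 8 group the shares were 28.5%, 41.8% and 18.2%. These intervals treat peaks as independent, which neighbours are not, and the same library chose the members, so no test was made.

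The shares were already higher in small runs. Of single peaks 19.2% held at least 18 tags, of peaks in pairs 23.7%, in runs of 3 24.9%, in runs of 4 24.8%, in groups of 5 28.3%, in groups of 6 to 7 27.4% and in groups of 8 or more 33.3% (26.1 to 41.2). Long peaks went from 9.58% of single peaks and 12.03% of pairs to 18.2% in groups of 5 and 20.1% in groups of 8 or more (14.2 to 27.2). Over all members the median was 12 tags and 440 bp, and outside dense groups it was 11 tags and 418 bp.

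**Figure D4:**
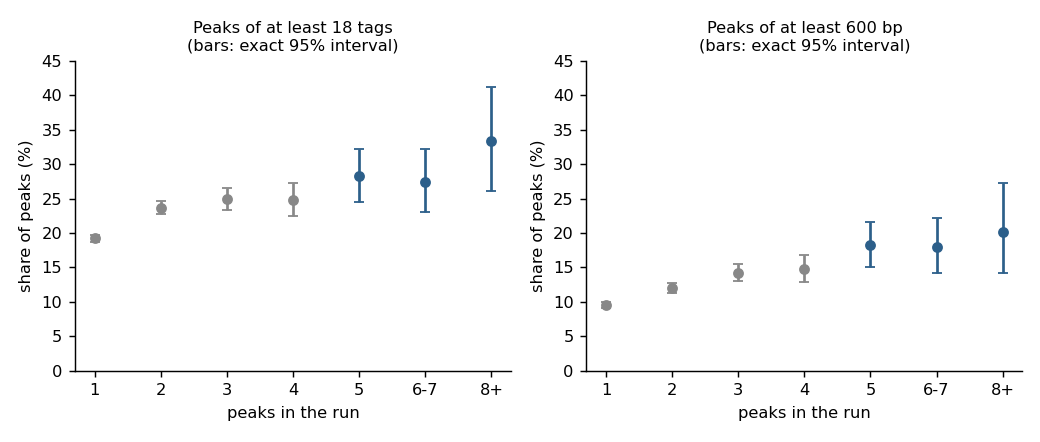
Share of peaks with at least 18 tags (left) and of at least 600 bp (right), in percent, by the number of peaks in the run, with exact 95% intervals. Grey points are runs too small to be dense groups and blue points are dense groups. The share of peaks with at least 18 tags stands at 19.2% for single peaks and 33.3% for groups of 8 or more, and the intervals of the dense classes overlap each other.

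A local background was found at 77 of 1104 members (6.97%, 5.54 to 8.64) and at 65 of 1075 (6.05%, 4.70 to 7.64) without the chromosome 8 group, against 8.71% of all autosomal peaks. Since this share rises with tags, it was also taken over peaks of at least 18 tags. There it was 15.1% of members (11.4 to 19.6), 12.7% without the chromosome 8 group (9.22 to 17.0) and 22.1% outside dense groups (21.1 to 23.1). A raised background makes it harder for a weak peak to be listed, and the groups were chosen from listed peaks. The lower share among members may therefore be partly built in by the rule, and no test was made. Neighbouring peaks can share control tags, so these intervals are too narrow. In 147 of 187 groups no peak had a local background. In 4 groups its share of the peaks was higher than in the chromosome 8 group. These were the chromosome 1 group of 14 peaks, with 6, a group at 61208874 to 61225992 on chromosome 9 with 5 of 7, one at 134909129 to 134931463 on chromosome 1 with 4 of 7, and one at 8790936 to 8810416 on chromosome 19 with 3 of 5.

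Of the 750 control regions, 699 were on the autosomes, and of these 1 lay inside a dense group and 2 lay within 10 kb of one (0.429%, exact interval 0.0886 to 1.25). The groups with 10 kb on either side took up 7.30 Mb, or 0.296% of the listed autosomal span, so the share of control regions there was near the share of the span. The region inside, of 3 tags at 3202366 to 3202756, belonged to a group of 6 peaks on chromosome 7 at 3184304 to 3214130. The sWGA peaks there held 15, 29, 12, 45, 18 and 52 tags, and the peak of 45 tags, 1 of 2 with a local background, scored 52.8 at a fold of 4.4. As background, the Mir290 to Mir295 microRNA cluster, whose products are typical of embryonic stem cells, is close to this place. Besides the region near the chromosome 8 group, a region of 3 tags lay 9186 bp to the right of a group of 5 peaks on chromosome 11 at 20086837 to 20115819, whose peaks held 10, 10, 32, 12 and 17 tags.

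Dense groups were found on every autosome. Chromosomes 7 and 11 had 15 each, chromosomes 1 and 6 had 13 each, and chromosomes 14 and 18 had 5 each. As a share of the chromosome's own peaks, members ranged from 4.86% on chromosome 17 (exact interval 3.76 to 6.16) and 4.63% on chromosome 7 (3.72 to 5.67) down to 2.05% on chromosome 10 (1.47 to 2.79). For chromosomes 2, 10, 12 and 14 the interval lay below the overall 3.33%, and for chromosomes 7 and 17 above it. Peaks of 1 group are not independent, so these intervals are too narrow. Chromosome 8 shows what a single group can do: its share was 3.73% with the group of 29 peaks and 1.96% without.

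Per length, chromosome 11 had the most groups, 12.3 per 100 Mb of listed span, followed by chromosome 17 with 11.5. Chromosome 10 had 40 members in 8 groups of its 1948 peaks, although its number of peaks is near that of chromosome 11, which had 84 members of 2043 peaks. The fewest groups per length were on chromosome 14, 4.001 per 100 Mb. Along the listed span of their chromosomes, 60 groups (32.1%) lay in the last of 4 equal stretches, which held 28.5% of all autosomal peaks, and 48 (25.7%) in the opening stretch, which held 22.2%.

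**Figure D5:**
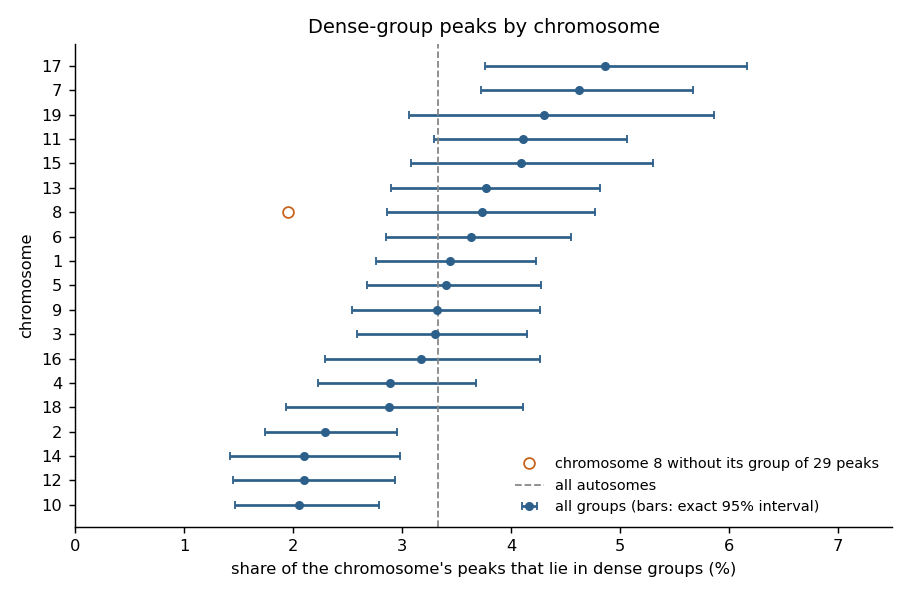
Share of each autosome's sWGA peaks that lie in dense groups, in percent, with exact 95% intervals. The dashed line marks 3.33% over all autosomes. Chromosome 17 is highest at 4.86% and chromosome 10 lowest at 2.05%, and the open circle shows chromosome 8 at 1.96% without its group of 29 peaks.

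Some groups also lay near other groups. Of 187 groups 61 had another within 1 Mb, in 28 neighbourhoods, and 5 neighbourhoods held 3 groups. The chromosome 8 stretch was one of these. How often smaller runs lay as close to each other was not counted, so the 61 groups have no base share beside them. On chromosome 7, 3 groups with 18 peaks and 324 tags lay within 199 kb at 52774950 to 52973652, and on chromosome 1, 3 groups with 17 peaks and 278 tags within 202 kb at 88199501 to 88401016. On chromosome 4, 3 groups with 350 tags lay at 146017507 to 146886599, and on chromosome 9, 3 groups with 336 tags at 61208874 to 62677050. On chromosome 16 the group of 9 peaks had a group of 7 within 419 kb, the pair holding 336 tags.

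Few groups remained dense in strong peaks alone. A score of at least 100 was reached by 33.9% of all autosomal peaks and 18 tags by 21.3%. Fewer runs of 5 follow from so thinned a list under the same gap rule, and no allowance was made for this. When peaks of a score of at least 100 were joined anew, 9 groups of 5 or more were left, on chromosomes 1, 2, 7, 8 and 16, with 3 on chromosome 7 and 2 each on chromosomes 8 and 16. With peaks of at least 18 tags 3 were left. These were 7 peaks with 328 tags on chromosome 1 at 72272469 to 72302310, 6 peaks with 250 tags on chromosome 8 at 19969241 to 19990830 and 6 peaks with 179 tags on chromosome 16 at 22395161 to 22413456. On chromosome 8 the peak of 212 tags lay outside the run so formed, and 5 of the 6 peaks in it were on a local background, against 0 of 6 on chromosome 16.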

How the data were processed

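Per the labels, 1 sWGA library and 1 control library were sequenced as single reads (Illumina). Positions are on mm9, which the submitters' processing notes name, and the aligner is not given in the sources used here. Per the file headers, the caller was MACS 1.4.1 (p limit 1e-05), run with 1 library against the other, with a fragment length of 155 bp, local windows of 1 and 10 kb, at most 2 tags per position in the sWGA library and 1 in the control, and the smaller library scaled up. Deposited per peak are a count of tags, whole and not scaled, and a score, which per the file headers is the −log10 of p times 10. The fold in the deposited list is a ratio of summit height to background, where the background is genome-wide unless nearby control tags give a higher one. The deposited FDR, a percent, was not used.

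Peaks were joined and described with Python 3.11.15, numpy 2.4.6, scipy 1.17.1 and pandas 2.3.3. Joining was checked on simulated data with planted runs. Medians have order-statistic and shares exact (Clopper-Pearson) 95% intervals, which cover counting error only. The groups and lists were chosen with earlier results of these data known. Groups named are the 12 with the most peaks (ties by tags), the 5 with the most tags, the 5 shortest, the 5 densest, the 5 with the highest and the 5 with the lowest strongest share, those within 10 kb of a control region, and the groups of the 5 strongest members. Other places named, as neighbourhoods, for their local background or in stricter lists, were chosen after their values were seen. Alternatives were gaps of 5 and 20 kb, a score of at least 100, at least 18 tags, merging within 1 kb, at least 8 peaks, and leaving out the largest group. Gene symbols and chromosomes were looked up in a GRCm38 gene table, whose coordinates were not used because the build differs.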

Additional observations from a re-analysis of the deposited data

Results flagged for a closer look

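Chromosome X lay outside the rule for chromosomes 1 to 19, yet 4 dense groups were found there when its peaks were joined in the same way, and 0 control regions on chromosome X were in a run of 5 or more. The control library was much shallower, so this contrast compares the lists as called. The X group of 15 peaks at 121264023 to 121288231 held 442 tags in 24.2 kb. Its strongest peak held 13.3% of them, below the lowest share among the 187 autosomal groups (16.2%, in the chromosome 13 group of 12 peaks). This share moves with the number of peaks. Relative to equal peaks the X group stood at 2.00 and the chromosome 13 group at 1.94. Evenness was 0.782 in the X group and 0.851 in the chromosome 13 group. A group of 5 peaks with 126 tags lay close to it, at 121210265 to 121217245. A group of 10 peaks at 166429903 to 166446411 held 253 tags, and one of 5 peaks at 4660389 to 4671603 held 78. A local control background was present at 7 of the 15 peaks, 4 of the 5, 6 of the 10 and 0 of the last 5. Over all autosomal peaks the share was 8.71%. The share over all chromosome X peaks was not counted, so these counts cannot be set against what is usual there. The part of this background in the X groups was not tested.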

How the results depend on the processing

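No paired analysis was possible because a single library stands for each condition, and no replicate could be left out. With gaps of up to 5 kb there were 64 groups in place of 187, with a median length of 10240.5 bp in place of 17810, a median gap of 1364 bp in place of 2450, a strongest share of 33.5% in place of 30.8% and an evenness of 0.822 in place of 0.851. With gaps of up to 20 kb there were 543 groups of 36107 bp, with a gap of 5008 bp and a strongest share of 29.5%. A score of at least 100 left 9 groups, with a strongest share of 33.0% and an evenness of 0.763, and 33.3% of them lay on chromosomes 7 and 11 in place of 16.0%, all on chromosome 7. At least 18 tags left 3 groups, with a median length of 21590 bp, a gap of 3079.5 bp and a strongest share of 24.1%. Merging peaks within 1 kb left 91 groups of 21953 bp, with a gap of 3741.5 bp, a strongest share of 32.9% and an evenness of 0.797. At least 8 peaks left 15 groups of 28289 bp, with a gap of 1861 bp, a strongest share of 23.0% and an evenness of 0.798. These shifts in number, length and gap follow from the rule's own construction. Of 36 alternative values 9 stayed within the interval of the main value or within 1.5 times its count, among them the 3 without the group of 29 peaks, which gave 186 groups. Depth limits what is listed, since no peak under 9 tags is in the list and a weak site between strong ones can join or split a group.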
